A study of Drosophila melanogaster with 12 samples.

Results

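The genes described here encode the subunits of the 2 Polycomb repressive complexes, PRC1 and PRC2, in BG3 cells (ML-DmBG3), a Drosophila line derived from central nervous system. They were chosen by name, as 6 PRC1 genes (Pc, Psc, ph-p, ph-d, Sce and Su(z)2) and 4 PRC2 genes (E(z), esc, Su(z)12 and Caf1-55). The choice used no measured value, but earlier results of these data were known. For 8 of these 10 genes, 4 in each complex, 1 probe set each was matched among the 18769 probe sets other than controls. All 8 were among the 7350 probe sets that reached log2 4 on at least 2 arrays and so entered the tests, which covered 5929 genes. The ph-p probe set has no name in the array annotation and was named from the gene symbol column of the study's supplementary expression table. The genes ph-d and Su(z)2 were not analysed here.

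Total RNA was measured on 12 arrays, 4 after Rad21 RNAi, 4 after Nipped-B RNAi and 4 after mock RNAi. Rad21 is a subunit of cohesin, the ring complex that holds sister chromatids together and also affects transcription, and Nipped-B is the factor that loads cohesin onto chromosomes. Day 3 is covered by 2 arrays per treatment (replicates 1 and 2), day 4 by replicate 3 and day 6 by replicate 4. The knockdown wells received 40 µg of dsRNA for the day 3 samples and 10 µg for the day 4 and day 6 samples, as equal amounts of a pair of dsRNAs per target. Mock wells received 0 µg, so no array carries a control dsRNA. All samples are of the 1 cell line with no other genetic change stated. In the knockdowns, the change from day 3 to the later days cannot be told apart from the change in the amount of dsRNA. The labels call replicates 1 and 2 biological replicates, and days 4 and 6 have 1 array per treatment, so that the spread of the later class also holds the difference between those days.

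Polycomb repression in flies works through both complexes. PRC2 methylates histone H3 on lysine 27 (H3K27Me3) through E(z), and PRC1 binds the methylated nucleosomes through the chromodomain of Pc and holds target genes silent. The system is best known for keeping Hox genes and other developmental regulators, such as engrailed and invected, off in cells where they should not be used.

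The values are log2 expression, so a difference of 1 is a 2-fold change. A gene said to rise or fall with a knockdown was higher or lower than in mock cells, not than at an earlier day. The medians of the tested probe sets lay between 9.33 and 9.41 on the 12 arrays. The probe set of Nipped-B was at background, with 2.27 to 2.29 over the 12 arrays, and Rad21 (vtd) was not analysed here, so no check of either knockdown is given. The neuronal marker elav was above log2 4 on 12 of 12 arrays, whereas the 3 other neuronal markers measured (fne, nSyb, brp) and 3 of the 5 neuroblast markers (dpn, ase and wor) were at background. The other 2 neuroblast markers, mira and insc, reached log2 4 on 9 and 10 of 12 arrays. The defining haemocyte markers Hml, NimC1 and He were at background too, but srp, a GATA factor of that lineage, and the glial genes moody, nrv2 and repo were above log2 4 on all arrays. The log2 of the summed level of the 4 haemocyte markers was 13.13 to 13.47 after Rad21 RNAi, 12.97 to 13.46 after Nipped-B RNAi and 12.49 to 13.05 in mock cells. That sum is nearly all srp, which alone read 13.13 to 13.47, 12.96 to 13.46 and 12.49 to 13.05. The sum of the 4 glial markers was 13.63 to 13.75, 13.53 to 13.91 and 13.39 to 13.66 in the same order. Among the haemocyte and glial markers, srp rose by 0.48 and 0.43 after the Rad21 and Nipped-B knockdowns (adjusted p = 0.00102 and 0.00245, limma). In the same order nrv2 rose by 0.50 and 0.48 (adjusted p = 0.011 and 0.0163). The other tested glial genes were not called, with repo at -0.24 and -0.12 and moody at -0.03 with each knockdown. Their part in the results below was not tested. In such bulk RNA, fewer cells of a type and less RNA per cell cannot be told apart.

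Transcripts of 3 of the 8 subunit genes rose after each knockdown, the same 3 in both: Pc and Psc of PRC1 and E(z) of PRC2. None fell. Pc, the chromodomain subunit, changed most, by 0.43 with Rad21 RNAi and 0.50 with Nipped-B RNAi, which are 1.35-fold and 1.42-fold. Calls rest on a linear model over all 12 arrays (limma), which has no term for the replicate number. They were made at a Benjamini-Hochberg adjusted p of at most 0.1 over the 7350 probe sets. By that rule 51.5% of all tested probe sets were called with Rad21 RNAi and 44.3% with Nipped-B RNAi (27.3% and 24.4% higher), and against those shares 3 of 8 is not a result about the subunit genes as a set. Both comparisons use the same 4 mock arrays.

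**Figure D1:**
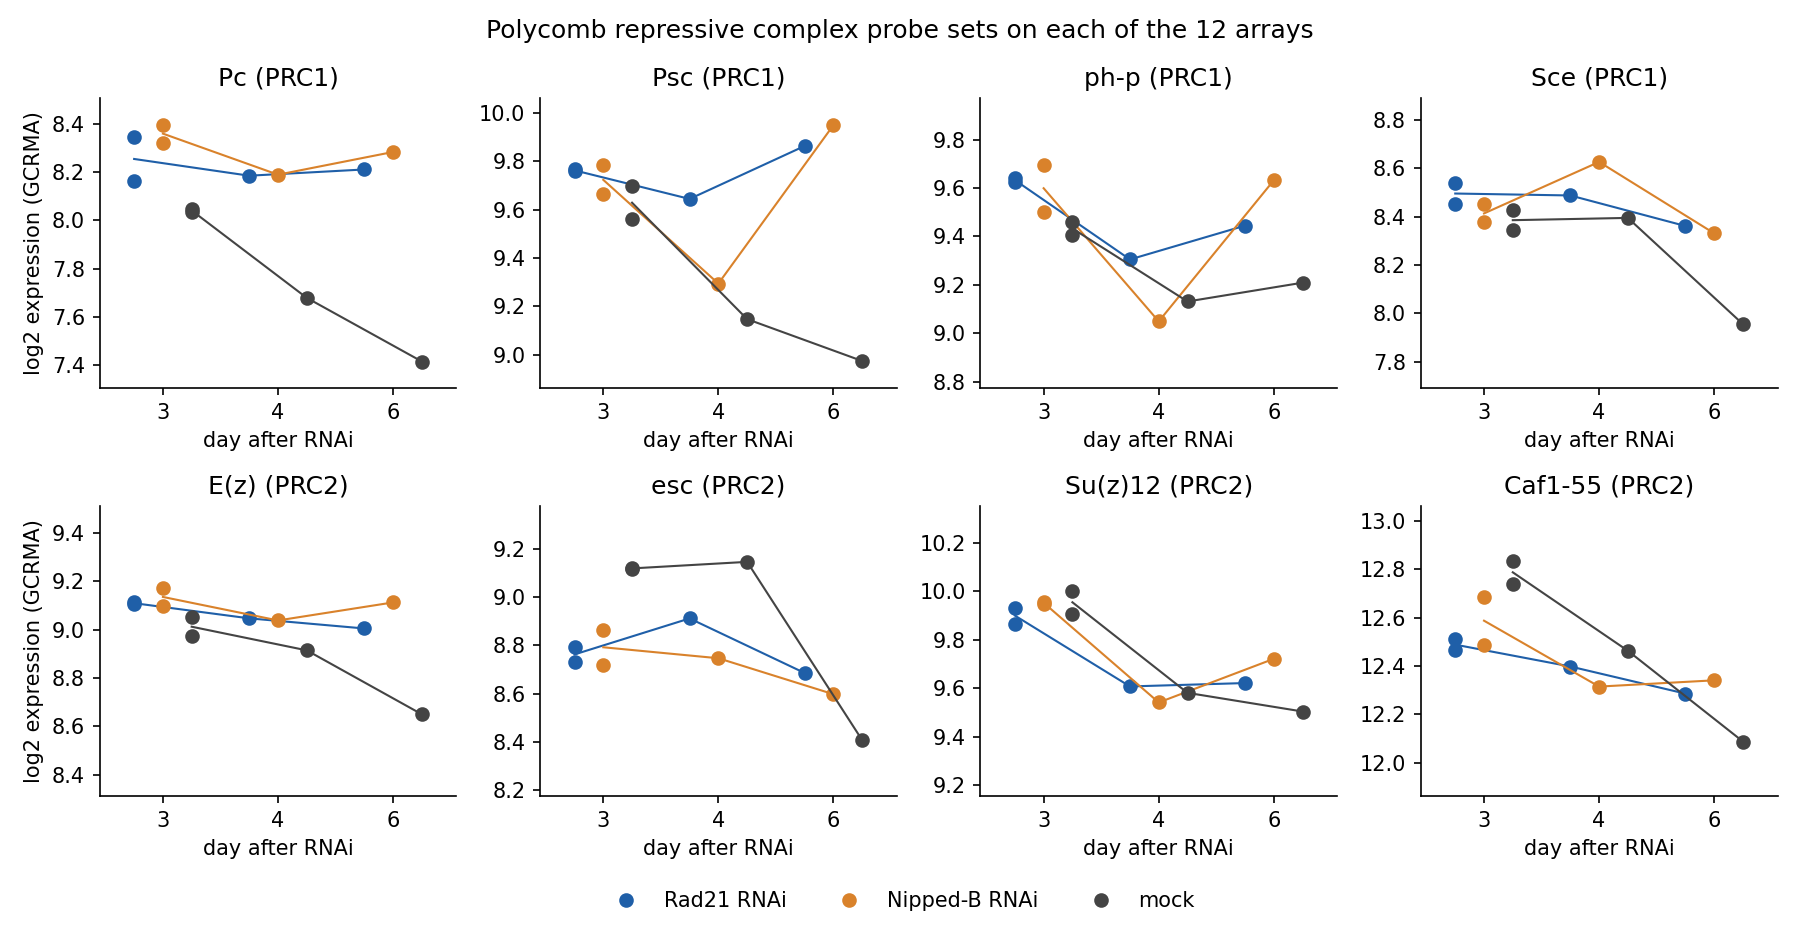
Log2 expression (GCRMA, vertical axis, each panel spanning 1.2 log2 units) of the 8 probe sets on each array, by day after RNAi (horizontal axis, not to scale). Points are single arrays, shifted sideways by treatment, and lines join the mean of the 2 arrays at day 3 to the single arrays at days 4 and 6. Only Pc has all knockdown arrays above all mock arrays, and for esc the mock array at day 6 (8.41) lies far under the other mock arrays (9.12 to 9.15).

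In PRC1, the gene Pc (3L:21306138-21318020, Release 6) read 8.34 and 8.16 at day 3, 8.18 at day 4 and 8.21 at day 6 after Rad21 RNAi. After Nipped-B RNAi it read 8.40 and 8.32, then 8.19, then 8.28. The mock arrays read 8.04 and 8.05, then 7.68, then 7.42. All 4 arrays of each knockdown were above all 4 mock arrays, as for 14.5% of tested probe sets with Rad21 RNAi and 10.8% with Nipped-B RNAi. The difference was 0.43 ± 0.08 (SE; adjusted p = 0.00269, limma) with Rad21 RNAi, with a 95% interval of 0.25 to 0.61. It was 0.50 ± 0.08 (adjusted p = 0.00179, limma) with Nipped-B RNAi, with an interval of 0.32 to 0.68. A difference at least this large in either direction was found in 24.5% of tested probe sets with Rad21 RNAi and in 14.6% with Nipped-B RNAi. Both Pc calls were kept when any 1 of the 12 arrays was left out, with differences of 0.37 to 0.50 with Rad21 RNAi and 0.44 to 0.57 with Nipped-B RNAi.

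Psc, the Posterior sex combs subunit that partners the ring finger protein Sce, lies at 2R:12965997-12980994. It read 9.77 and 9.76 at day 3, 9.64 at day 4 and 9.86 at day 6 after Rad21 RNAi. After Nipped-B RNAi it read 9.66 and 9.78, then 9.29, then 9.95, and in mock cells 9.56 and 9.70, then 9.15, then 8.97. Both knockdowns overlapped the mock arrays, and each knockdown array was above the mock array of its own number in 4 of 4 pairs. No share of all tested probe sets is set beside such pair counts, here or below. They are therefore not a result about the members. The difference was 0.41 ± 0.13 (SE; adjusted p = 0.0334, limma) with Rad21 RNAi and 0.33 ± 0.13 (adjusted p = 0.0853) with Nipped-B RNAi. The Psc calls rested on single arrays more than those of Pc. Without Rad21 replicate 4 (day 6) the Rad21 difference was 0.36 and not called (adjusted p = 0.107). The Nipped-B call was kept only when replicate 3 of Nipped-B RNAi or of mock was the array left out. Without any other single array it was lost, at differences of 0.16 to 0.36 and adjusted p of 0.102 to 0.208, the smallest of them without Nipped-B replicate 4 (day 6).

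The other PRC1 probe sets moved less. ph-p (X:2126210-2138371), one of the neighbouring pair of polyhomeotic genes, read 9.62, 9.64, 9.30 and 9.44 in replicates 1 to 4 of Rad21 RNAi, 9.50, 9.70, 9.05 and 9.63 in those of Nipped-B RNAi, and 9.46, 9.41, 9.13 and 9.21 in mock cells. Its arrays overlapped those of mock cells, with differences of 0.20 (95% interval -0.07 to 0.47, adjusted p = 0.198, limma) and 0.17 (-0.10 to 0.44, adjusted p = 0.298). The knockdown array was above the mock array of its own number in 4 of 4 pairs with Rad21 RNAi and in 3 of 4 with Nipped-B RNAi. Without Nipped-B replicate 3 (day 4) the ph-p difference with Nipped-B RNAi was 0.31 and passed (adjusted p = 0.013), and that with Rad21 RNAi, unmoved at 0.20, passed without Nipped-B replicate 3 or 4 (adjusted p = 0.0365 and 0.0369), arrays that enter it only through the shared estimate of spread.

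Sce (3R:27680431-27682029), the Ring subunit that ubiquitinates histone H2A, read 8.54, 8.45, 8.49 and 8.36 in replicates 1 to 4 after Rad21 RNAi. It read 8.45, 8.38, 8.63 and 8.33 after Nipped-B RNAi, and 8.34, 8.43, 8.39 and 7.96 in mock cells. The mock array at day 6 was the lowest of the 12, and the groups overlapped. In pairs of equal number the knockdown array was higher in 4 of 4 with Rad21 RNAi and in 3 of 4 with Nipped-B RNAi. The differences were 0.18 (95% interval -0.07 to 0.43, adjusted p = 0.215, limma) and 0.17 (-0.08 to 0.41, adjusted p = 0.268). Without mock replicate 3 (day 4) both passed, at 0.29 (adjusted p = 0.0324) and 0.28 (adjusted p = 0.0442).

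With the replicate number as a block, which sets each knockdown array against the mock array of its own number and day, Sce passed with Rad21 RNAi (adjusted p = 0.0593, limma) and with Nipped-B RNAi (0.0839), and ph-p passed with Rad21 RNAi (0.0846). In that fit 4 of 4 PRC1 probe sets were called higher with Rad21 RNAi and 3 of 4 with Nipped-B RNAi, where 35.8% and 34.1% of all tested probe sets were called higher. The PRC1 median difference was 0.31 with Rad21 RNAi and 0.25 with Nipped-B RNAi, beside 0.04 and 0.05 over all tested probe sets.

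In PRC2, the catalytic subunit E(z) (3L:10634575-10638130) rose slightly. It read 9.11 and 9.11 at day 3, 9.05 at day 4 and 9.00 at day 6 after Rad21 RNAi. After Nipped-B RNAi it read 9.17 and 9.10, then 9.04, then 9.11, and in mock cells 8.97 and 9.05, then 8.91, then 8.65. The lowest knockdown arrays of both treatments lay inside the mock range, and in 4 of 4 pairs of equal number the knockdown array was higher. The difference was 0.17 ± 0.07 (SE; adjusted p = 0.0826, limma) with Rad21 RNAi and 0.21 ± 0.07 (adjusted p = 0.0488) with Nipped-B RNAi. The Rad21 call of E(z) was kept only without mock replicate 3 or Nipped-B replicate 3 or 4. Without any other single array it was lost, at 0.10 to 0.19 with adjusted p of 0.11 to 0.202. The Nipped-B call was lost without mock replicate 1 or Nipped-B replicate 1 or 4 (0.19 in each, adjusted p of 0.108 to 0.137).

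The gene esc (2L:11827204-11829405) encodes the WD40 subunit that binds methylated H3K27 and stimulates E(z). It read 8.73, 8.79, 8.91 and 8.69 in replicates 1 to 4 after Rad21 RNAi and 8.87, 8.72, 8.75 and 8.60 after Nipped-B RNAi. In mock cells it read 9.12, 9.12 and 9.15 at days 3, 3 and 4, above all 8 knockdown arrays, and 8.41 at day 6, below all of them. The difference over all arrays was -0.17 (95% interval -0.49 to 0.16, adjusted p = 0.385, limma) with Rad21 RNAi and -0.22 (-0.54 to 0.11, adjusted p = 0.279) with Nipped-B RNAi. The result for esc turned on the 1 mock array at day 6. Without it esc was lower by 0.35 and passed (log2 difference -0.35, adjusted p = 0.0112) with Rad21 RNAi, and likewise with Nipped-B RNAi (-0.40, adjusted p = 0.00859).

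Caf1-55 (3R:15225576-15227564), a histone-binding WD40 protein that PRC2 shares with several other complexes, read 12.51, 12.47, 12.40 and 12.29 in replicates 1 to 4 after Rad21 RNAi. It read 12.69, 12.49, 12.32 and 12.34 after Nipped-B RNAi and 12.84, 12.74, 12.46 and 12.09 in mock cells. At days 3 and 4 the mock array was the higher of each pair, and at day 6 the lower, as for esc. The differences were -0.12 (95% interval -0.31 to 0.07, adjusted p = 0.292, limma) and -0.07 (-0.26 to 0.12, adjusted p = 0.527). Without mock replicate 4 both passed, at -0.21 (adjusted p = 0.0283) and -0.17 (adjusted p = 0.0713).

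Su(z)12 (3L:19918242-19923462), the zinc finger subunit that holds the PRC2 core together, read 9.87, 9.93, 9.61 and 9.62 in replicates 1 to 4 after Rad21 RNAi. It read 9.96, 9.95, 9.54 and 9.72 after Nipped-B RNAi and 9.91, 10.00, 9.58 and 9.50 in mock cells. All 3 treatments overlapped, with day 3 above the later days in each. The differences were 0.01 (95% interval -0.13 to 0.15, adjusted p = 0.923, limma) and 0.04 (-0.09 to 0.18, adjusted p = 0.614), and neither passed when any single array was left out. The PRC2 median difference was -0.05 with Rad21 RNAi and -0.02 with Nipped-B RNAi, beside 0.04 and 0.05 over all tested probe sets. No test compared the complexes with each other.

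**Figure D2:**
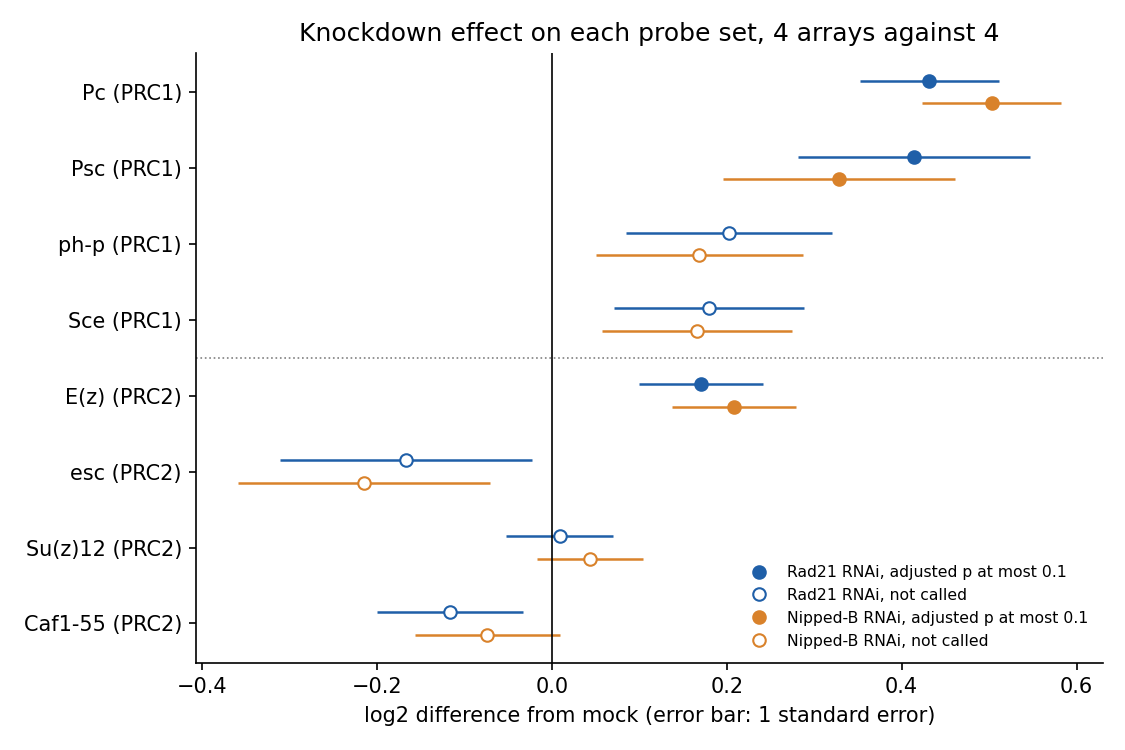
Log2 difference from mock (horizontal axis) for each of the 8 probe sets, PRC1 above the dotted line and PRC2 below, with Rad21 RNAi (blue) above Nipped-B RNAi (orange) for each gene. Bars are 1 standard error from the linear model over 12 arrays, and filled points passed an adjusted p of 0.1. The 4 PRC1 values lie between 0.17 and 0.50, and those of PRC2 between -0.22 and 0.21.

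The knockdowns themselves were set against each other directly. None of the 8 probe sets differed between Rad21 and Nipped-B RNAi (adjusted p = 1 for each, limma), and none of the 8 had an unadjusted p under 0.05. Over all tested probe sets 0.0952% were called in this comparison. The differences of Rad21 minus Nipped-B RNAi lay between -0.07 for Pc (95% interval -0.25 to 0.11) and 0.09 for Psc (-0.22 to 0.39). The widest interval was that of esc, -0.28 to 0.38, so a difference of that size between the knockdowns could not be seen with 4 arrays each.

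By day, more subunit genes passed the test against mock at days 4 and 6 than at day 3, although the change of the effect between those times passed for none of them. At day 3 none of the 8 probe sets was called with either knockdown, where 30.8% of tested probe sets were called with Rad21 RNAi and 11.9% with Nipped-B RNAi. At an unadjusted p under 0.05 there was 1 with each knockdown. These were Caf1-55 with Rad21 RNAi (-0.30, adjusted p = 0.103, limma) and Pc with Nipped-B RNAi (0.32, adjusted p = 0.134). With the replicate block, which called 46.4% and 28.1% of tested probe sets at day 3 with Rad21 and Nipped-B RNAi, Caf1-55 (-0.30, adjusted p = 0.0295) and esc (-0.36, adjusted p = 0.0775) were called lower at day 3 with Rad21 RNAi, and Pc (0.32, adjusted p = 0.0788) higher with Nipped-B RNAi. With arrays centred on their median (32% and 13.2% of tested probe sets called), Caf1-55 (-0.29, adjusted p = 0.0861) and Pc (0.34, adjusted p = 0.0793) were called with those knockdowns. Without mock replicate 3 or 4, arrays that enter the day 3 values only through the shared spread, 2 of 8 passed at day 3 with each knockdown, where 35.5% and 35.6% of all tested probe sets passed with Rad21 RNAi and 16% and 16.1% with Nipped-B RNAi.

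Over days 4 and 6 Pc rose by 0.65 after Rad21 knockdown and 0.69 after Nipped-B knockdown (adjusted p = 0.00348 and 0.00284, limma), and these calls were kept without any single array. Psc rose by 0.69 and 0.56 (adjusted p = 0.0227 and 0.0514) and E(z) by 0.24 and 0.29 (adjusted p = 0.0949 and 0.0554). So 3 of 8 were called with each knockdown, where 41.5% of tested probe sets were called with Rad21 RNAi and 39.9% with Nipped-B RNAi. The Psc calls were lost without Rad21 replicate 4 (0.58, adjusted p = 0.126), and without Nipped-B replicate 4 or mock replicate 4 (0.23 and 0.47, adjusted p of 0.177 to 0.236). The E(z) call with Nipped-B RNAi was lost without Nipped-B replicate 4 or mock replicate 4 (0.16 to 0.26, adjusted p of 0.176 to 0.231). That with Rad21 RNAi was kept only without mock replicate 3 or Nipped-B replicate 3 or 4, and otherwise had an adjusted p of 0.121 to 0.398. With the replicate block, which called 56.9% and 55.3% of tested probe sets, Sce was called as well (0.25, adjusted p = 0.0706 with Rad21 RNAi and 0.30, adjusted p = 0.0372 with Nipped-B RNAi). Without mock replicate 3 (day 4), when 39.6% of all tested probe sets passed with Rad21 RNAi and 39.2% with Nipped-B RNAi, Sce passed as well (0.47 with Rad21 RNAi and 0.52 with Nipped-B RNAi, adjusted p = 0.0368 and 0.026 by limma), as did Caf1-55 (0.25 with Rad21 RNAi and 0.24 with Nipped-B RNAi, adjusted p = 0.0834 and 0.0989) and, with Rad21 RNAi, esc (0.39, adjusted p = 0.0514). Without mock replicate 4 (day 6) the esc difference was -0.35 with Rad21 RNAi (0.02 over all arrays, adjusted p = 0.0804 without the array) and -0.47 with Nipped-B RNAi (-0.10 over all arrays, adjusted p = 0.0319 without it), and without Nipped-B replicate 3 the ph-p difference with Nipped-B RNAi was 0.46 (adjusted p = 0.0204). At day 6 alone, from 1 array per treatment and so with no replicate check, Pc was 1.73-fold over mock after Rad21 RNAi and 1.82-fold after Nipped-B RNAi, and Psc 1.85-fold and 1.97-fold.

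The change of a knockdown effect between the time classes was tested as an interaction, and none of the 8 probe sets passed with either knockdown. Over all tested probe sets 1.24% passed with Rad21 RNAi and 0.34% with Nipped-B RNAi. Pc was the 1 member with an unadjusted p under 0.05 in each. Its effect was larger later by 0.44 ± 0.16 (SE; adjusted p = 0.282, limma) with Rad21 RNAi and by 0.37 ± 0.16 (adjusted p = 0.501) with Nipped-B RNAi. Without mock replicate 3 (day 4), 3 of 8 passed with Rad21 RNAi, where 13.4% of all tested probe sets passed in the same fit, and without Nipped-B replicate 3, 1 of 8 passed with Nipped-B RNAi, where 2.12% did.

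In mock cells the levels of the subunits themselves were lower at days 4 and 6 than at day 3, in all 8 probe sets. The change passed in 4 of 8, where 35.2% of all tested probe sets changed in mock cells and 20.8% fell. Pc fell by 0.49 (adjusted p = 0.0151, limma), Psc by 0.57 (adjusted p = 0.0554), Su(z)12 by 0.41 (adjusted p = 0.0108) and Caf1-55 by 0.51 (adjusted p = 0.0156). The others were esc at -0.34, ph-p at -0.26, E(z) at -0.23 and Sce at -0.21, none of which passed. The median change was -0.38 in PRC1 and -0.38 in PRC2, beside -0.07 over all tested probe sets. These values rest on 2 arrays against 2. Without mock replicate 3 (day 4), which leaves day 6 alone against day 3, 7 of 8 passed, where 39.4% of all tested probe sets did, the exception being ph-p, which passed without Nipped-B replicate 3 or 4 (-0.26, adjusted p = 0.0683 and 0.0688). The Psc call was lost without mock replicate 1, 2 or 4 (-0.64 to -0.48, adjusted p of 0.124 to 0.22). Some tested markers of other cell types also fell in mock cells over the later days, and others did not. The neuroblast marker mira fell by 1.24 in mock cells over the later days (adjusted p = 0.0347, limma) and at days 4 and 6 was higher by 1.08 with Nipped-B RNAi (adjusted p = 0.0488), against 0.27 with Rad21 RNAi, which was not called (adjusted p = 0.59). In mock cells srp fell by 0.41 (adjusted p = 0.0205) and repo by 0.64 (adjusted p = 0.0991), and insc was at -0.80 (adjusted p = 0.26). The other tested markers were not called either, with nrv2 at -0.15, elav at 0.16 and moody at 0.23. Both mira and insc lie near the limit for testing, with log2 4 reached on 9 and 10 of 12 arrays. The levels of repo were near it too, at 4.15 to 5.23 over the 12 arrays. The log2 of the summed level of the 5 neuroblast markers was 5.57 to 6.16 after Rad21 RNAi, 5.97 to 6.10 after Nipped-B RNAi and 5.17 to 6.12 in mock cells. Their part in the results was not tested.

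The fitted change with time was smaller in size in both knockdowns than in mock cells for most of the subunits. From day 3 to the later days the mean of Pc moved by -0.06 after Rad21 RNAi, -0.12 after Nipped-B RNAi and -0.49 in mock cells. The mean of Psc moved by -0.01 after Rad21 RNAi, -0.10 after Nipped-B RNAi and -0.57 in mock cells. In the same order of treatments, Caf1-55 moved by -0.15, -0.26 and -0.51, esc by 0.04, -0.12 and -0.34, E(z) by -0.08, -0.06 and -0.23, and Sce by -0.07, 0.07 and -0.21. Su(z)12 moved by -0.29, -0.32 and -0.41, and ph-p by -0.26 in each of the 3 treatments. The differences between these changes are the interactions above, of which none passed. Mock cells differ from the knockdown cells of the same day in the dsRNA target and in having received no dsRNA, which cannot be told apart here.

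**Figure D3:**
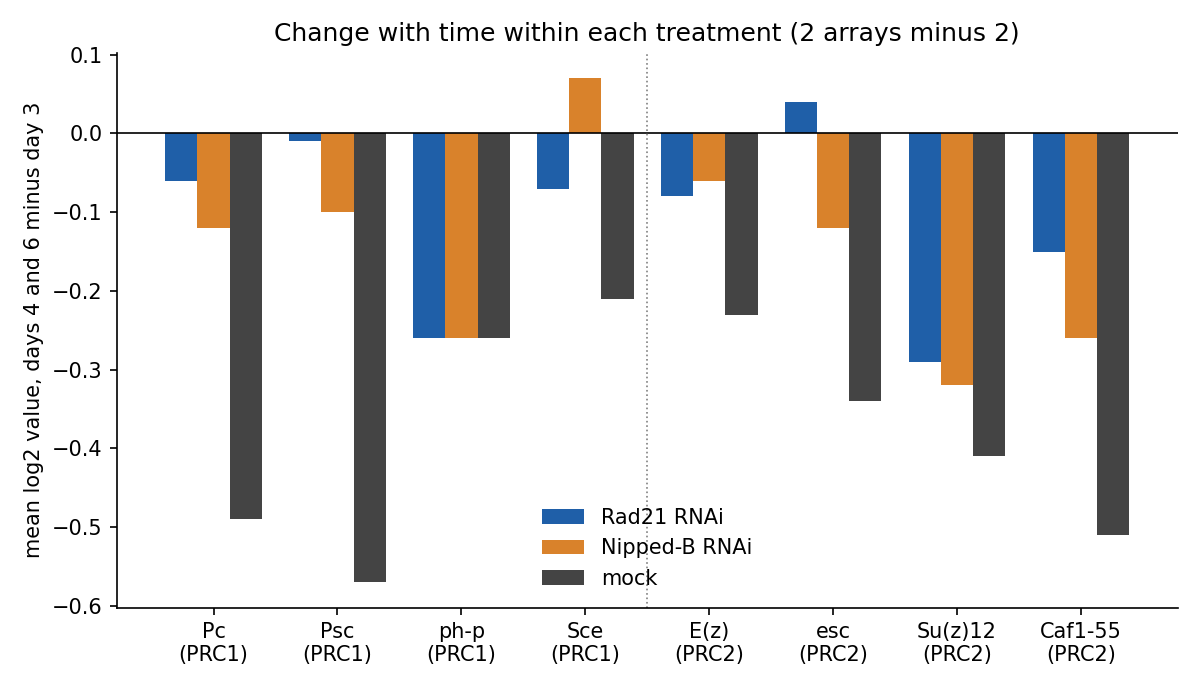
Mean log2 value of the 2 arrays at days 4 and 6 minus the mean of the 2 arrays at day 3 (vertical axis), for each of the 8 probe sets after Rad21 RNAi, after Nipped-B RNAi and in mock cells. The mock bars are all below 0, from -0.57 for Psc to -0.21 for Sce, while Pc and Psc moved by -0.12 to -0.01 in the knockdowns.

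The array pattern of each subunit was set beside those of all other tested probe sets of 1 gene, by the root mean square difference of their mean-centred log2 values over the 12 arrays. Nearest to Pc was Gpdh1, a glycerol phosphate dehydrogenase (0.079), then brm, the ATPase of the Brahma complex (0.086). Nearest to Psc was kcc, a potassium chloride cotransporter (0.086), and nearest to E(z) was Chd1, a chromatin remodeller (0.036). MED4, a Mediator subunit, was nearest to Sce (0.051), yrt to ph-p (0.074), PolD2 to esc (0.082), Mgtor to Su(z)12 (0.059) and mms4 to Caf1-55 (0.055). Among the subunits themselves the closest pairs were Sce with E(z) (0.098), Su(z)12 with Caf1-55 (0.123) and esc with Caf1-55 (0.136), and Pc and Psc stood 0.159 apart. No subunit had another subunit as its nearest probe set. All these values share the 12 arrays and are given as a description.

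Genes near Psc on the chromosome were also higher after the knockdowns. Of its 3 nearest genes on either side with a tested probe set, 6 of 6 were called higher with Rad21 RNAi, from 0.22 for SCCRO3 to 1.04 for GLaz, where 27.3% of all tested probe sets were. With Nipped-B RNAi 5 of 6 were called higher, where 24.4% of all were, and Sans, at 0.33, was not (adjusted p = 0.154, limma). The nearest, Mdr49, a multidrug transporter 19.6 kb away, rose by 0.69 and 0.49, and the nearest on the other side, Cap-G, a condensin subunit 152.1 kb away, rose by 0.27 and 0.31. In mock cells, Mdr49 was higher on the later days (0.91, adjusted p = 0.00279), whereas Psc fell. Most of the other neighbours fell there as Psc did. These were Sans (-0.76, adjusted p = 0.0453), SCCRO3 (-0.33, adjusted p = 0.0781), Cap-G (-0.59, adjusted p = 0.0331) and GLaz (-0.44, adjusted p = 0.0185, all limma). Ack-like was at -0.17 and not called (adjusted p = 0.128). Of all tested probe sets 20.8% fell in mock cells. Su(z)2 lies between Psc and Cap-G. No test set these neighbours against other genes.

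The neighbours of the other subunits showed no common direction. Beside ph-p, D2hgdh, a hydroxyglutarate dehydrogenase gene 3.1 kb away, fell by 2.71 after Rad21 knockdown and by 2.35 after Nipped-B knockdown (adjusted p = 0.000243 and 0.000795, limma). On its other side csw, a tyrosine phosphatase gene, rose by 0.57 and 0.47. Art3, whose annotated span adjoins that of Caf1-55, fell by 0.95 and by 0.88, against the differences of -0.12 and -0.07 of Caf1-55. Next to Pc, CG7632, whose span overlaps that of Pc, fell by 0.29 with Rad21 RNAi (adjusted p = 0.0113), the opposite direction to Pc, and was at -0.14 with Nipped-B RNAi (adjusted p = 0.158). On the other side of Pc, Tsr1, 17.2 kb away, fell by 0.60 and by 0.65, and ebd2, 26.7 kb away, rose by 0.61 and 0.49 (adjusted p = 0.00641 and 0.0208), the direction of Pc.

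Other genes of the Polycomb system give the setting of these changes. Their lists were written from known roles, with earlier results of these data known, and no test set them against other genes. The counts of genes called higher stand beside 27.3% of all tested probe sets with Rad21 RNAi and 24.4% with Nipped-B RNAi. Of the accessory PRC2 genes (Pcl, jing, Jarid2, escl), 1 of 4 was called higher with Rad21 RNAi and 2 of 4 with Nipped-B RNAi, and none lower. The zinc finger cofactor jing rose by 0.36 and 0.23 (adjusted p = 0.0125 and 0.073, limma). Jarid2, a PRC2 cofactor, rose by 0.24 with Nipped-B RNAi and was at 0.18 with Rad21 RNAi (adjusted p = 0.101). Of 3 accessory PRC1 genes tested (RYBP, l(3)73Ah, Scm), only RYBP was called, at 0.27 and 0.30 (adjusted p = 0.0943 and 0.0761).

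Of the DNA-binding and recruiting factors, 6 of 10 were tested, and 3 rose with Rad21 RNAi (27.3% of all tested probe sets) and 4 with Nipped-B RNAi (24.4% of all). Trl, the GAGA factor, rose by 0.37 and 0.39 (adjusted p = 0.00462 and 0.0047, limma), Spps by 0.29 and 0.34, and Sfmbt, the partner of the DNA-binding protein Pho, by 0.24 and 0.21. phol, the paralogue of pho, rose by 0.19 with Nipped-B RNAi and was at 0.16 with Rad21 RNAi (adjusted p = 0.119). In mock cells 4 of the 6 fell over the later days, where 20.8% of all tested probe sets fell, and the median of the 6 was -0.54, beside -0.07 over all.

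Of 6 tested genes of the PR-DUB deubiquitinase and other Polycomb group functions, 4 rose with each knockdown, beside 27.3% of all tested probe sets with Rad21 RNAi and 24.4% with Nipped-B RNAi, and none fell. These were corto (0.57 and 0.40), Asx, the partner of the deubiquitinase calypso (0.48 and 0.36), crm (0.25 and 0.35) and mxc (0.23 and 0.21). Among the antagonists, trx, the histone methyltransferase that opposes Polycomb silencing, rose by 0.47 and 0.41 (adjusted p = 0.0222 and 0.044, limma). The demethylase gene Utx was at -0.22 and -0.02, and nej, the CBP acetyltransferase gene, at 0.11 and -0.09, neither of them called.

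Caf1-55 also serves in chromatin assembly factor 1, NURF, NuRD-type complexes and the Myb-MuvB complex, and 10 partners from these were tested. With each knockdown 3 of 10 rose and 1 fell, where 27.3% of all tested probe sets rose and 24.1% fell with Rad21 RNAi, and 24.4% rose and 19.9% fell with Nipped-B RNAi. The gene that fell was Nurf-38, the inorganic pyrophosphatase subunit of NURF. Its log2 values were 11.92 to 12.21 after Rad21 RNAi, 12.08 to 12.27 after Nipped-B RNAi and 12.52 to 12.72 in mock cells, with differences of -0.55 and -0.46 (adjusted p = 0.000141 and 0.000531, limma). The gene of the largest subunit of the assembly factor rose by 0.33 with Rad21 RNAi and was at 0.23 with Nipped-B RNAi (adjusted p = 0.214). MTA1-like rose by 0.26 with Nipped-B RNAi and was at 0.24 with Rad21 RNAi (adjusted p = 0.101), and mip130 rose by 0.23 with each.

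**Figure D4:**
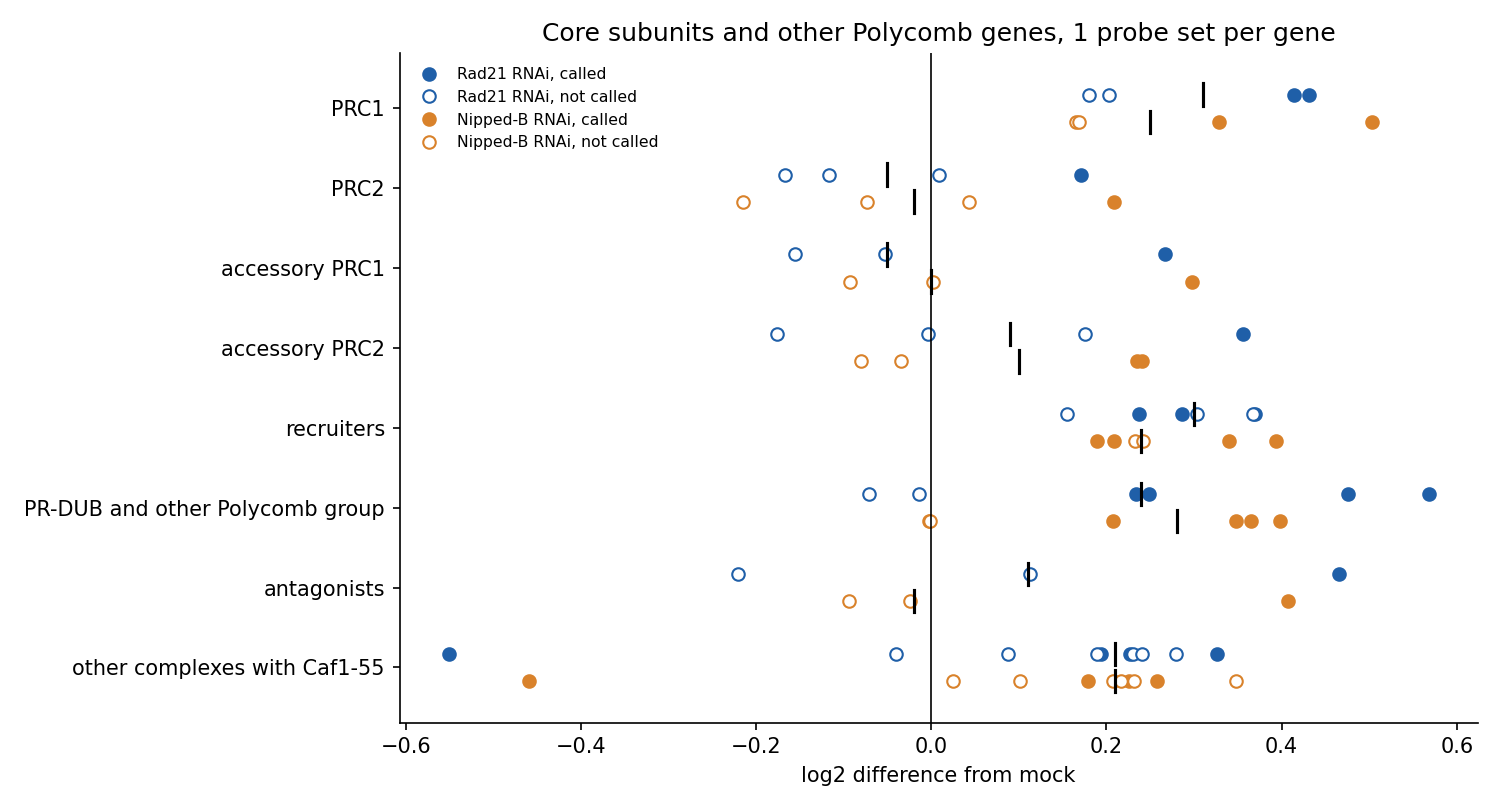
Log2 difference from mock (horizontal axis) of each tested gene in the core complexes and 6 lists of related genes (rows), with Rad21 RNAi (blue) above Nipped-B RNAi (orange). Each point is 1 gene, filled where called at an adjusted p of at most 0.1, and black ticks are list medians. PRC1 medians are 0.31 and 0.25, PRC2 medians -0.05 and -0.02, and the lowest points are those of Nurf-38 (-0.55 and -0.46).

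Most targets of the complexes that were matched to a probe set were below the limit for testing. Of the 8 Hox genes, 4 were matched to a probe set of their own. None of these reached log2 4 on 2 arrays, so 0 were tested. The other Hox genes were not matched and were not analysed here. Of 20 other known Polycomb targets, 18 were matched to a probe set, and hth and wg were not matched and were not analysed here. Of the 5 that were tested, 4 rose with each knockdown (27.3% and 24.4% of all tested probe sets with Rad21 and Nipped-B RNAi). The homeobox gene en read 8.22 to 9.33 after Rad21 RNAi, 7.31 to 9.47 after Nipped-B RNAi and 4.20 to 4.64 in mock cells. Its neighbour inv read 7.82 to 9.40 after Rad21 RNAi, 6.88 to 8.42 after Nipped-B RNAi and 4.84 to 5.12 in mock cells. These are rises of 4.40 and 3.97 for en and of 3.57 and 2.68 for inv, whereas the largest difference of a subunit gene over all days was 0.50. Lim1 rose by 0.67 and 0.46, and pnr by 0.28 and 0.21. The fifth, ci, was at -0.11 with each knockdown and was not called.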

How the data were processed

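The deposited values were log2 expression computed by the authors with GCRMA from Affymetrix Drosophila Genome 2.0 arrays (its version not given in the sources used here). GCRMA compresses low values, so differences near background are understated. Control probe sets (183 of 18952) were left out, and 13543 of the others took a symbol from a RefSeq gene table of Release 6. Probe sets at log2 4 or above on at least 2 of 12 arrays were tested (7350). Arrays have no read depth, and their number limits the precision.

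Linear models were fitted in limma 3.58.1 (R 4.3.3) to 6 means (3 treatments in 2 time classes, day 3 and days 4 and 6), with eBayes and a variance trend. A Benjamini-Hochberg adjusted p of 0.1 or less was called, the threshold in the study's methods, which state a 2-way analysis of treatment and time. The fit was tested on simulated data with independent noise on each array. That test does not cover the deviations shared by samples of equal number, given below. Python 3.11.15, pandas 2.3.3, numpy 2.4.6 and matplotlib 3.10.9 were used otherwise.

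Samples with the same replicate number deviated together. Correlations of their deviations from the treatment mean were 0.49 to 0.79, of the day 3 difference (replicate 1 minus 2) 0.36 to 0.50 and of the difference of day 6 minus day 4 0.51 to 0.66. The first and last of these also hold changes with day that the treatments share. Only the day 3 difference compares replicate numbers within a day. The pairing by number is drawn from these data and the shared days in the labels. The main fit has means for each time class but no term for the replicate number. Its calls therefore leave out any pairing beyond the time class. Among the fits, only the replicate block, run as an alternative, sets samples of equal number against each other.

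The members and lists were chosen with earlier results of these data known. All members matched to a probe set were named, with up to 4 called genes of each other list by size of change. So were the nearest probe sets by pattern and the 3 nearest tested genes on each side. The alternatives were no filter or a limit of log2 5, variances without trend, a plain linear model, treatment as the only term, median centring, raising values under log2 4 to 4, the replicate block, a 0.05 threshold, and leaving out each array.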

Additional observations from a re-analysis of the deposited data

Results flagged for a closer look

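Of 24 groups of 4 arrays (8 probe sets in 3 treatments) 1 held an array far from the rest, where chance would give about 1 in 20. It was esc in mock cells, where replicate 4 (day 6) read 8.41 and the other mock arrays 9.12 to 9.15. The gap was 0.961 of the range of the group. That array is the only one of its day and treatment.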

How the results depend on the processing

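Pc kept its calls with both knockdowns under every alternative run. Of 2 PRC1 probe sets called with Nipped-B RNAi, 1 was called with no filter, a plain linear model, treatment as the only term or a threshold of 0.05. The replicate block called 4 PRC1 probe sets with Rad21 RNAi, 2 of all 8 at day 3 with Rad21 RNAi and 1 with Nipped-B RNAi, and centring gave 1 and 1 at day 3. The PRC2 count was 0 with no filter and with treatment as the only term for each knockdown, and 0 at a threshold of 0.05 with Rad21 RNAi. With no filter or a threshold of 0.05, the count for Nipped-B RNAi at days 4 and 6 was 1. The block changed no call of a member other than those of Sce, ph-p, esc, Caf1-55 and Pc given in the report, and it was not run on the change in mock cells, which it cannot separate from the replicate number. The causes were not tested. Leaving out 1 array at a time gave 1 to 3 called PRC1 probe sets with Rad21 RNAi and 1 to 3 with Nipped-B RNAi, 0 to 2 and 0 to 3 PRC2 probe sets, 0 to 2 of 8 at day 3 with each knockdown, 1 to 6 and 1 to 5 at days 4 and 6, 0 to 3 and 0 to 1 interactions, and 3 to 7 in mock cells with time. A lone array of a treatment was then assumed to vary like the others. Shares of all tested probe sets are not set beside these counts here, nor beside those of the other settings above. A changed count is therefore not a result about the members. Signs turned only in values that were not called over all arrays. Without 1 array esc ranged from -0.35 to 0.0175 with Rad21 RNAi (-0.35 to 0.39 at days 4 and 6), from -0.47 to 0.26 with Nipped-B RNAi at days 4 and 6, and from -0.71 to 0.027 in mock cells with time. Su(z)12 ranged from -0.0156 to 0.0328 with Rad21 RNAi, and with Nipped-B RNAi from -0.0016 to 0.0887, or from -0.0012 to 0.18 at days 4 and 6. Caf1-55 ranged from -0.17 to 0.02 with Nipped-B RNAi, and at days 4 and 6 from -0.12 to 0.25 with Rad21 RNAi and from -0.14 to 0.24 with Nipped-B RNAi. ph-p ranged from -0.12 to 0.46 with Nipped-B RNAi at days 4 and 6, and Sce from -0.43 to 0.0095 in mock cells with time. Without the ph-p probe set, whose name is not in the array annotation, 3 of 7 members were called with each knockdown. Of all tested probe sets, 51.5% were called with Rad21 RNAi and 44.3% with Nipped-B RNAi. Signal over background did not limit the members, which were all above log2 7.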
